A study of Homo sapiens with 16 samples.

Results

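The genes described here are 47 genes of DNA replication and of the G1 to S transition, taken by name from a fixed list and looked up in the 4 count tables of the study. Each of the 47 symbols matched a single identifier among the 64252 gene identifiers of each table, all 47 had reads in all 16 libraries, and all 47 passed the filter on low counts in every comparison. The list holds 10 origin licensing genes, 6 genes of helicase activation, 12 genes of the polymerases, primase, clamp and clamp loader, 3 genes of Okazaki fragment maturation and uracil repair, 4 genes of nucleotide supply, 6 regulators of the G1 to S transition and 6 genes of chromatin assembly, histone mRNA and checkpoint functions. The list was set by gene function, with earlier results of these data known, and its genes are called the 47 members below.

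RNA was sequenced from Jurkat and 6T-CEM, which are established human cell lines of T-cell acute lymphoblastic leukaemia. The tested cells carried a short hairpin RNA against SH2D1A (sh-SH2D1A), which encodes the adaptor protein SAP of SLAM family receptors, and their controls carried a control hairpin (sh-NC). Jurkat cells were collected at days 8 and 10 and 6T-CEM cells at days 5 and 10, with 2 libraries for each line, day and hairpin, or 16 libraries in 8 groups. The labels give no genotype or treatment beyond the hairpin, name neither the vector nor the number of hairpins, do not say from which event the days are counted, and give no sign of whether both libraries of a group were grown separately. Every p-value below is therefore one of the spread among the sequenced libraries, which may be technical.

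Replication is prepared in G1, when the origin recognition complex, CDC6 and CDT1 load the MCM2 to MCM7 helicase on DNA as an inactive ring. At the start of S phase, CDC45 and the 4-subunit GINS complex join the MCM ring to make the active CMG helicase, which unwinds DNA ahead of polymerase epsilon on the leading strand and of polymerases alpha and delta on the lagging strand. Many of these genes are transcribed at the G1 to S boundary by E2F factors, which the retinoblastoma protein holds back until cyclins D and E with their kinases release them, and E2F7 and E2F8 repress the same genes later in S phase. T-cell leukaemia lines in culture divide continuously and so carry this programme at all times.

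SH2D1A itself had 49.4 to 80.8 CPM (counts relative to the library's total, scaled by the trimmed mean of M values over all 16 libraries) in the 8 sh-SH2D1A libraries, against 154 to 204 CPM in the 8 sh-NC libraries, and fell in all 4 comparisons, with log2 changes between -1.72 and -0.996. Total counts ranged from 27217899 to 33788024 per library. All 12 T-cell markers examined had reads in all 16 libraries, although CD2 was as low as 0.991 CPM in one of them. Of the 5 B-cell markers, CD79A reached between 15.2 and 74.0 CPM, and the other 4 stayed at or below 2.76 CPM. The summed levels of 6 myeloid markers were 1.40 to 3.13 CPM and those of 5 epithelial markers 1.11 to 5.73 CPM, with EPCAM and KRT19 each at 0 in 15 of the libraries. The 2 sh-SH2D1A libraries of 6T-CEM at day 5 stood apart: their counts differed by a chi-square of 25.0 per degree of freedom, against 4.84 to 10.1 in the other 7 pairs, and mitochondrial transcripts took 7.98 and 9.19% of their counts, against 7.44 and 7.63% in the sh-NC libraries of that day. Their part in the results of that day was not tested. The number of members called that day is given below with and without each of them.

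Promoters are shown for 3 members because GINS1 and GINS3 moved in opposite directions after sh-SH2D1A and E2F1 encodes the factor whose binding word was searched for. The sequences are RefSeq promoter windows of GRCh38.p14 from 250 bases before to 30 bases after the annotated start, written on the strand of the gene. Capitals mark matches of either strand to CCAAT or to any of the 4 E2F words TTTGGCGC, TTTCCCGC, TTTGCCGC and TTTCGCGC.
GINS1 (chr20:25407423-25407702, plus strand): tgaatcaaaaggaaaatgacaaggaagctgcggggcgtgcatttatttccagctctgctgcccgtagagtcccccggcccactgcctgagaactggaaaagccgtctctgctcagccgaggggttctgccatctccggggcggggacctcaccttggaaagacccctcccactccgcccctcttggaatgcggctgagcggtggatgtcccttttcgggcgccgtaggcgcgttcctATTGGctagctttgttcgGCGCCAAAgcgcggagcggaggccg
GINS3 (chr16:58392221-58392500, plus strand): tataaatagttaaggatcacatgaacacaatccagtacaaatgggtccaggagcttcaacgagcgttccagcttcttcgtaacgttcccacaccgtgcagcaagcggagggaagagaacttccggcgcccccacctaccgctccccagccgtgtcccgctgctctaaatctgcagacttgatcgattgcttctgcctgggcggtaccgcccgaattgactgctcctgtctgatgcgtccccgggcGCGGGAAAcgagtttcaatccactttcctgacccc
E2F1 (chr20:33686356-33686635, minus strand): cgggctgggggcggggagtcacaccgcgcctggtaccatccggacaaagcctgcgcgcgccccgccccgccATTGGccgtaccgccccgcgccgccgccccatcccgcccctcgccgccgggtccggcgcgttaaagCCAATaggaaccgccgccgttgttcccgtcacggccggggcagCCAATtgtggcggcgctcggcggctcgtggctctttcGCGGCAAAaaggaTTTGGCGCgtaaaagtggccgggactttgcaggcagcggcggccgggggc
The GINS1 window held 1 E2F word beginning 6 bases after the start and 1 reverse CCAAT beginning 13 bases before it. The GINS3 window held 1 E2F word beginning 5 bases before the start and no CCAAT. The E2F1 window held 2 E2F words, beginning 33 and 20 bases before the start, and 3 matches to CCAAT. Both GINS genes had an E2F word near the start, and their changes were opposite. Whether the word plays a part in either change was not tested.

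Windows of 300 bases, which reach 50 bases past the start, were at hand for 41 of the 47 members. An E2F word was found in 23 of the 41 members, or 56.1%, against 3.99% of the 27305 genes with a window. The 3 promoters printed above are all of members with the word. The other 18 members with a window had none, among them CDC45 and TK1. CCAAT was found in 61% of the members and in 39.7% of all genes, and the GC box GGGCGG in 75.6% of the members and in 48.3% of all genes. All words were searched on both strands. No CCAAT or GGGCGG lies wholly within an E2F word, but a GGGCGG and an E2F word can share bases at their ends. A match describes the sequence and does not show a bound site.

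The comparison of sh-SH2D1A with sh-NC cells asks which replication genes moved when SH2D1A was lowered. GINS3 rose and GINS1 fell in all 4 comparisons, and they were the 2 members called in all of them. Here a gene is called when the adjusted p of edgeR's quasi-likelihood test, over all genes of the comparison, is under 0.05. Among all 17521 genes tested in every comparison, 138, or 0.788%, were called in all 4. A further 16 members were called in 1 or 2 comparisons, 13 of them lower and 3 higher, and 29 members were called in none. The 18 members called in 1 or more comparisons were 38.3% of the 47, against 24.2% of all genes. No member was called in both directions.

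In Jurkat cells at day 8, 2 members rose and 7 fell, or 19.1% of the 47, where 12.4% of all genes were called, 5.23% as higher and 7.13% as lower. At day 10, 1 rose and 4 fell, or 10.6%, where 3.78% of all genes were called, 1.26% as higher and 2.52% as lower. In 6T-CEM cells at day 5, 1 rose and 3 fell, or 8.51%, where 2.11% of all genes were called, 0.606% as higher and 1.51% as lower. At day 10, 3 rose and 7 fell, or 21.3%, where 14% of all genes were called, 6.61% as higher and 7.42% as lower. The median log2 change of the members was -0.04, -0.13, -0.19 and -0.02 in these 4 comparisons, and that of all genes lay between -0.003 and 0.004. Most members therefore had small changes, and the shifts of the middle of the list were largest in Jurkat cells at day 10 and 6T-CEM cells at day 5. Bulk RNA cannot tell fewer cells in S phase from less RNA of a gene per cell.

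**Figure D1:**
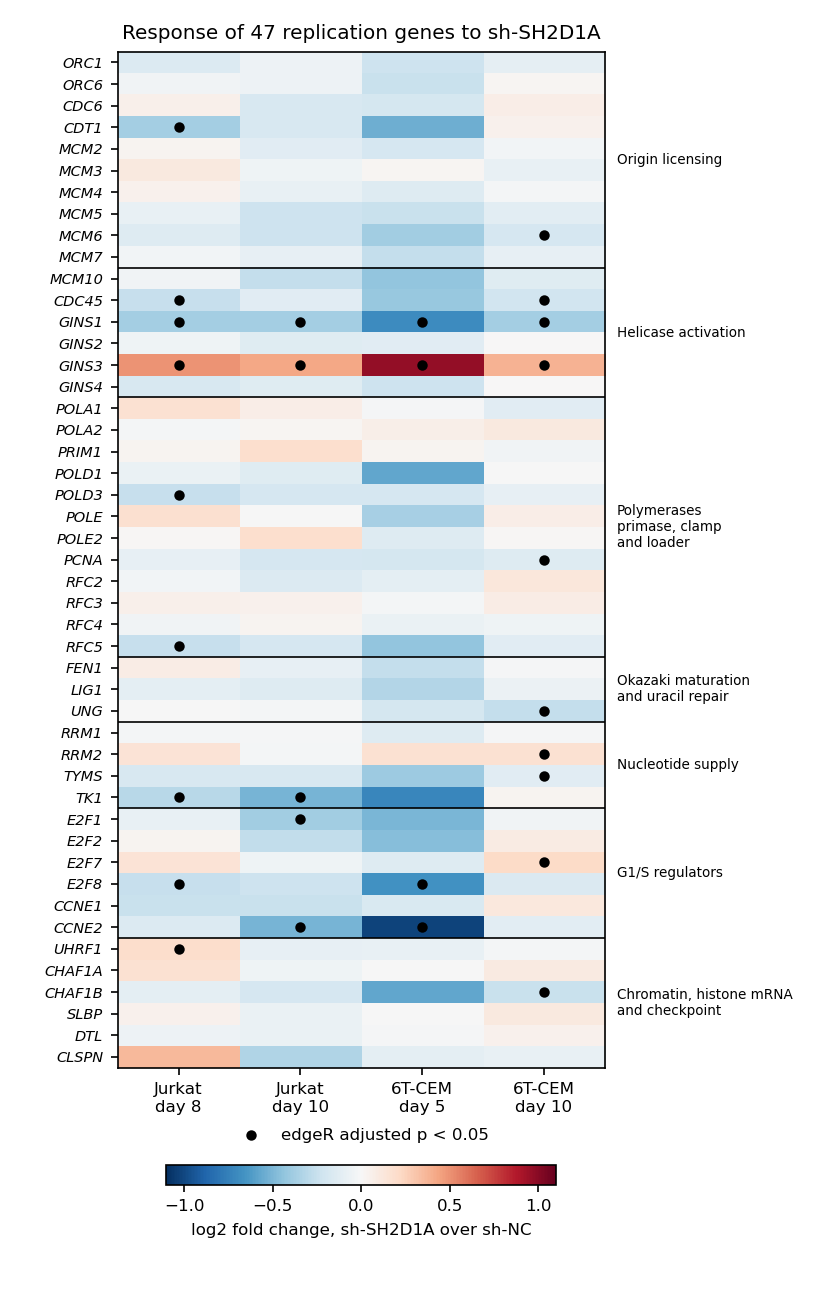
Log2 fold changes of sh-SH2D1A over sh-NC for the 47 members (rows, grouped by role) in the 4 comparisons (columns), with 2 libraries per arm and dots where the edgeR adjusted p was under 0.05. GINS3 is the red row called in all 4 columns and GINS1 the blue row called in all 4, and the 6T-CEM day 5 column is blue for 42 of the 47 members.

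More members had a negative than a positive log2 change in all 4 comparisons, most clearly in Jurkat cells at day 10 and 6T-CEM cells at day 5. At Jurkat day 8, 29 of the 47 were negative, and at 6T-CEM day 10, 28 were. In Jurkat cells at day 10, 40 of the 47 members had a negative log2 change. Both sh-SH2D1A libraries lay below both sh-NC libraries for 31 members and above them for 3, where 24.5% and 24.2% of all genes did. In 6T-CEM cells at day 5, 42 members had a negative change, and 32 lay below without overlap and 3 above, where 25.3% and 23.3% of all genes did. For Jurkat day 8, 18 members lay below and 13 above, where 28.3% and 29.1% of all genes did. For 6T-CEM day 10, 22 lay below and 11 above, where 28.7% and 28.1% of all genes did. Members with a negative change in all 4 comparisons numbered 19, or 40.4% of the 47, against 18.3% of all genes.

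The summed level of the 47 members showed the same days. In 6T-CEM cells at day 5 it was 6469 and 6526 CPM with sh-SH2D1A and 7537 and 7578 CPM with sh-NC, and in Jurkat cells at day 10 it was 8532 and 8652 CPM with sh-SH2D1A and 9244 and 9394 CPM with sh-NC. The sums at 6T-CEM day 10 were 6989 and 7029 CPM with sh-SH2D1A against 7160 and 7203 CPM with sh-NC. They overlapped at Jurkat day 8, with 9744 and 9781 CPM with sh-SH2D1A and 9762 and 9888 CPM with sh-NC. The number of members called at 6T-CEM day 5 moved with each library left out. Without sh-SH2D1A replicate 1, 1 member rose and 19 fell, and the calls over all genes were 2687, against 412 with all 4 libraries. Without sh-SH2D1A replicate 2, 1 member rose and 11 fell, with 1890 calls over all genes. The higher counts were thus shared by the members and all genes. Leaving out sh-NC replicate 1 or 2 gave 2 and 1 members, with 347 and 299 calls over all genes. In the other comparisons the number of members called also moved with the library left out, as did that of all genes. For the members it rose without sh-NC replicate 1 of Jurkat day 8 and fell without any other library. These fits leave a lone library in a group, which shows no spread of its own. When genes with low counts were kept in the fit, 3 members were called at Jurkat day 8 and 0 at Jurkat day 10. At 6T-CEM days 5 and 10, 4 and 1 were called. Over all genes the Jurkat calls then went from 2381 to 873 at day 8 and from 721 to 0 at day 10. The 6T-CEM calls went from 412 to 324 at day 5 and from 2752 to 1099 at day 10.

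Origin licensing genes prepare the sites where replication starts. CDT1, which brings the MCM ring to the origin, had 188 and 197 CPM with sh-SH2D1A against 244 and 252 CPM with sh-NC in Jurkat cells at day 8. Both sh-SH2D1A values were lower, and the log2 change was -0.37 ± 0.05 (adjusted p = 0.00436). At day 10 it had 256 and 248 CPM with sh-SH2D1A against 304 and 267 CPM with sh-NC in Jurkat cells, again without overlap, and the change was -0.18 ± 0.09 (adjusted p = 0.307), which did not pass. In 6T-CEM cells it had 111 and 86.1 CPM with sh-SH2D1A against 146 and 142 CPM with sh-NC at day 5 and 139 and 141 CPM with sh-SH2D1A against 131 and 140.3 CPM with sh-NC at day 10. The day 5 change of -0.54 ± 0.14 (adjusted p = 0.0953) did not pass either, and at day 10 the values overlapped. Without either sh-SH2D1A library of Jurkat day 8 the call of CDT1 was lost, at adjusted p of 0.0694 without replicate 1 and 0.0518 without replicate 2.

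Of the MCM2 to MCM7 helicase subunits, MCM6 alone was called in a single comparison. In 6T-CEM cells at day 10 it had 157 and 159 CPM with sh-SH2D1A against 183 and 176 CPM with sh-NC, all sh-SH2D1A values below the sh-NC values, for a change of -0.18 ± 0.04 (adjusted p = 0.0119). The call was lost without sh-NC replicate 1, at an adjusted p of 0.0844. MCM6 was also lower without overlap in the other 3 comparisons, with log2 changes of -0.14 ± 0.05 in Jurkat cells at day 8, -0.23 ± 0.07 at day 10 and -0.39 ± 0.12 in 6T-CEM cells at day 5, none past the threshold. The other 5 subunits had log2 changes between -0.26 and 0.11 over the 4 comparisons. ORC1 and ORC6 of the origin recognition complex and CDC6, the loading ATPase, had changes between -0.25 and 0.07, none of them called.

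Helicase activation held the 2 members called in every comparison. GINS1 (ENSG00000101003, chromosome 20, 25407727 to 25452628, plus strand, hg38) encodes the PSF1 subunit of the GINS complex. In Jurkat cells it had 90.5 and 95.4 CPM with sh-SH2D1A against 115 and 124 CPM with sh-NC at day 8 and 97.0 and 97.6 CPM with sh-SH2D1A against 122 and 130.4 CPM with sh-NC at day 10. The 6T-CEM cells had 77.6 and 87.8 CPM with sh-SH2D1A against 134 and 135 CPM with sh-NC at day 5 and 76.3 and 76.9 CPM with sh-SH2D1A against 101 and 98.6 CPM with sh-NC at day 10. In each comparison both sh-SH2D1A libraries lay below both sh-NC libraries. The log2 changes were -0.37 ± 0.06 (adjusted p = 0.00878) and -0.37 ± 0.08 (adjusted p = 0.0294) in Jurkat cells at days 8 and 10, and -0.69 ± 0.12 (adjusted p = 0.0261) and -0.38 ± 0.04 (adjusted p = 0.000738) in 6T-CEM cells at days 5 and 10. These correspond to levels of 0.774, 0.772, 0.621 and 0.769 times those of the controls.

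GINS3 (ENSG00000181938, chromosome 16, 58295080 to 58406144, plus strand, a span that holds the RefSeq start printed above) encodes the PSF3 subunit of the same complex and moved the other way. In Jurkat cells it had 58.1 and 57.7 CPM with sh-SH2D1A against 41.0 and 41.0 CPM with sh-NC at day 8 and 51.1 and 50.8 CPM with sh-SH2D1A against 39.9 and 36.2 CPM with sh-NC at day 10. In 6T-CEM cells it had 41.4 and 39.4 CPM with sh-SH2D1A against 22.1 and 19.4 CPM with sh-NC at day 5 and 52.9 and 52.0 CPM with sh-SH2D1A against 42.9 and 37.6 CPM with sh-NC at day 10. Both sh-SH2D1A libraries were above both sh-NC libraries every time, and the 2 day 5 sh-NC libraries held the lowest GINS3 levels of all 16. The log2 changes were 0.49 ± 0.06 (adjusted p = 0.00389) and 0.42 ± 0.10 (adjusted p = 0.04) in Jurkat cells at days 8 and 10, and 0.97 ± 0.16 (adjusted p = 0.0196) and 0.38 ± 0.07 (adjusted p = 0.0107) in 6T-CEM cells at days 5 and 10, or 1.41, 1.34, 1.96 and 1.31 times the controls. An antisense transcript covers 10.9% of the GINS3 exons and had 215 counts over all libraries against 20671 for GINS3.

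The ratio of the 2 transcripts differed between the arms. Per kilobase of exon, GINS1 over GINS3 was 1.96 and 2.07 in sh-SH2D1A Jurkat libraries of day 8, against 3.51 and 3.82 in sh-NC libraries. At day 10 the ratio was 2.38 and 2.41 with sh-SH2D1A against 3.83 and 4.53 with sh-NC. In 6T-CEM it was 2.35 and 2.80 with sh-SH2D1A against 7.59 and 8.70 with sh-NC at day 5, and 1.81 and 1.86 with sh-SH2D1A against 2.95 and 3.29 with sh-NC at day 10. All 8 sh-SH2D1A libraries had a ratio below all 8 sh-NC libraries. The ratio was chosen after the 2 genes had been seen and is a description without a test.

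**Figure D2:**
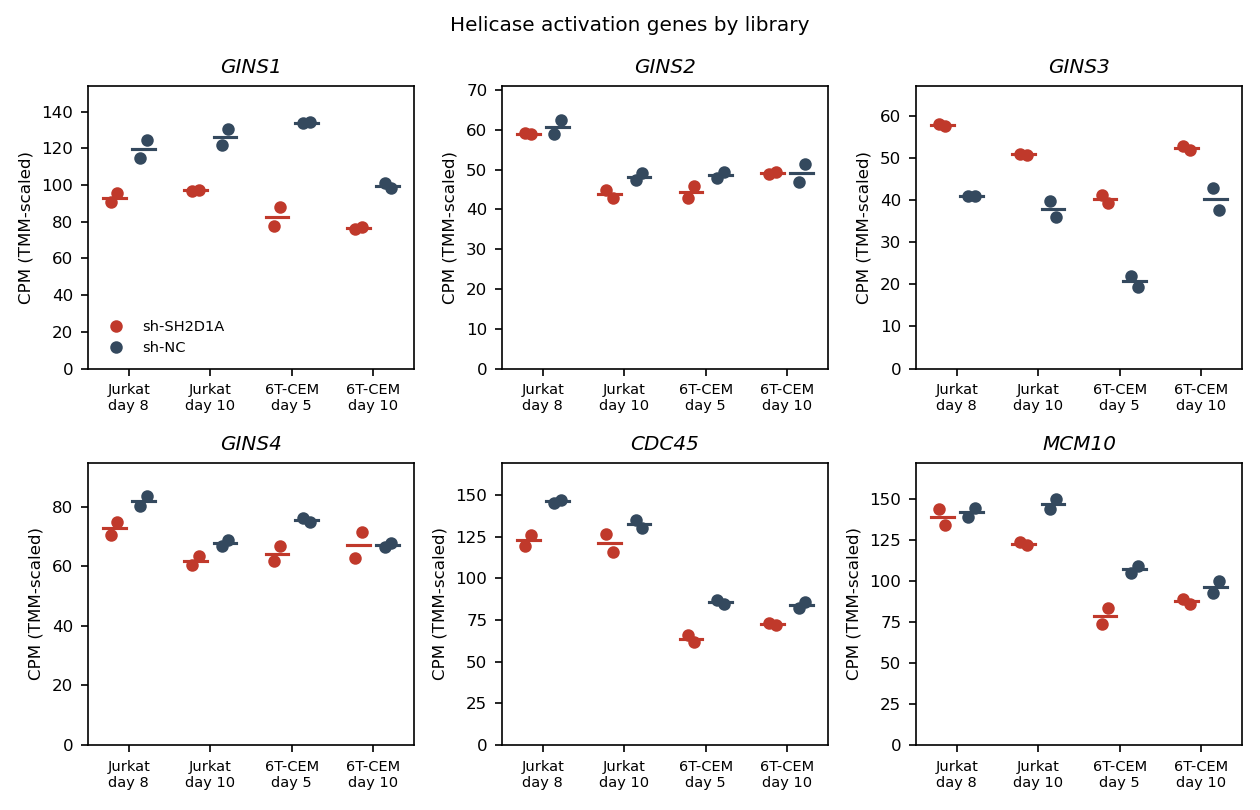
TMM-scaled CPM of 6 helicase activation genes in each library (points; y axis) by line and day (x axis), with sh-SH2D1A in red left of sh-NC in grey and short lines at the means of 2 libraries. The red points of GINS3 lie above and those of GINS1 below the grey points in all 4 pairs of groups, while GINS2 and GINS4 were called in none.

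The other 2 GINS subunits were not called in any single comparison. GINS2 had changes of -0.05 ± 0.06 and -0.14 ± 0.09 in Jurkat cells and -0.12 ± 0.14 and 0.00 ± 0.06 in 6T-CEM cells, earlier day first. GINS4 had -0.18 ± 0.06, -0.13 ± 0.09, -0.22 ± 0.12 and 0.00 ± 0.07 in the same order. The sign of the GINS1 and GINS3 changes held under every alternative tried, but several calls rested on single libraries. At Jurkat day 10 leaving out any of the 4 libraries ended both calls, with adjusted p up to 0.112 for GINS1 and 0.14 for GINS3. The GINS1 call was also lost at Jurkat day 8 without either sh-SH2D1A library, at adjusted p of 0.0805 without replicate 1 and 0.0604 without replicate 2, and at 6T-CEM day 5 without sh-NC replicate 1 or 2, at 0.181 and 0.216. GINS3 at 6T-CEM day 5 was lost without sh-NC replicate 2, at 0.124. Without the sh-SH2D1A replicate 1 or 2 of that day, GINS1 was -0.60 (adjusted p = 0.000393) and -0.77 (adjusted p = 3.42e-05), and GINS3 was 0.93 (adjusted p = 0.000716) and 1.01 (adjusted p = 0.000513).

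CDC45, the remaining partner of the CMG helicase, was called lower in both lines. In Jurkat cells it had 119.6 and 126 CPM with sh-SH2D1A against 145 and 147 CPM with sh-NC at day 8 and 127 and 116 CPM with sh-SH2D1A against 135 and 130.1 CPM with sh-NC at day 10. The 6T-CEM cells had 65.8 and 61.9 CPM with sh-SH2D1A against 86.9 and 84.7 CPM with sh-NC at day 5 and 72.9 and 72.2 CPM with sh-SH2D1A against 82.2 and 85.7 CPM with sh-NC at day 10. The sh-SH2D1A libraries were lower without overlap in all 4 comparisons. The changes of -0.26 ± 0.05 (adjusted p = 0.0197) at Jurkat day 8 and -0.21 ± 0.05 (adjusted p = 0.019) at 6T-CEM day 10 passed, and those of -0.13 ± 0.08 (adjusted p = 0.458) and -0.42 ± 0.12 (adjusted p = 0.129) at the other days did not. The calls were lost without sh-SH2D1A replicate 1 or 2 at Jurkat day 8 (adjusted p = 0.172 and 0.105) and without sh-NC replicate 2 or sh-SH2D1A replicate 2 at 6T-CEM day 10 (adjusted p = 0.127 and 0.054). MCM10, which helps to activate the loaded helicase, had changes of -0.04 ± 0.06, -0.26 ± 0.08, -0.43 ± 0.12 and -0.13 ± 0.05 from Jurkat day 8 to 6T-CEM day 10, none of them called.

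Among the polymerases, the primase, the clamp and its loader, 3 genes were called, each lower and each in 1 comparison. RFC5, a subunit of the clamp loader, had 106 and 106 CPM with sh-SH2D1A against 124 and 128 CPM with sh-NC in Jurkat cells at day 8, for -0.26 ± 0.05 (adjusted p = 0.0171). It was lower without overlap in the other comparisons too, with -0.18 ± 0.08 at Jurkat day 10, -0.43 ± 0.12 at 6T-CEM day 5 and -0.12 ± 0.05 at 6T-CEM day 10, none past the threshold. The other loader subunits RFC2, RFC3 and RFC4 had changes between -0.15 and 0.12, and none of these was called. POLD3, an accessory subunit of polymerase delta, had 75.8 and 70.9 CPM with sh-SH2D1A against 86.5 and 87.6 CPM with sh-NC at Jurkat day 8, for -0.26 ± 0.06 (adjusted p = 0.0295). PCNA, the sliding clamp, had 279 and 272 CPM with sh-SH2D1A against 304 and 307 CPM with sh-NC at 6T-CEM day 10, for -0.15 ± 0.03 (adjusted p = 0.0172). Each of these calls depended on single libraries. RFC5 lost it without sh-SH2D1A replicate 1 or 2 (adjusted p = 0.129 and 0.141). POLD3 lost it without either of those or without sh-NC replicate 2 (adjusted p up to 0.217), and PCNA without either sh-NC library or without sh-SH2D1A replicate 2 (adjusted p up to 0.084).

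POLD1, the catalytic subunit of polymerase delta, had 117 and 99.6 CPM with sh-SH2D1A against 167 and 158 CPM with sh-NC in 6T-CEM cells at day 5. Its libraries did not overlap, and its change of -0.57 ± 0.13 (adjusted p = 0.0573) was just short of the threshold. At 6T-CEM day 10 it had 208 and 207 CPM with sh-SH2D1A against 205 and 213 CPM with sh-NC, and the values overlapped. The polymerase alpha and primase genes POLA1, POLA2 and PRIM1 had changes between -0.13 and 0.19 over the 4 comparisons. POLE and POLE2 of polymerase epsilon lay between -0.37 and 0.19. None of these 5 genes was called. POLA2 shares 35.1% of its exon length with another annotated gene on the same strand. That gene is not among the identifiers counted here, so no counts were assigned to it.

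Okazaki fragment maturation joins the pieces of the lagging strand, and uracil repair removes misplaced uracil. UNG, the uracil glycosylase, had 95.0 and 93.7 CPM with sh-SH2D1A against 117 and 109.7 CPM with sh-NC in 6T-CEM cells at day 10, for -0.26 ± 0.05 (adjusted p = 0.0066), with both sh-SH2D1A libraries lower. In Jurkat cells UNG had 138 and 132 CPM with sh-SH2D1A against 131 and 138 CPM with sh-NC at day 8 and 94.6 and 91.5 CPM with sh-SH2D1A against 96.8 and 92.6 CPM with sh-NC at day 10, and the groups overlapped at both days. FEN1, the flap nuclease, and LIG1, the ligase that seals the fragments, had changes between -0.32 and 0.09 and were not called.

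Nucleotide supply genes make the building blocks of DNA. TK1, the cytosolic thymidine kinase of S phase, had 46.1 and 48.2 CPM with sh-SH2D1A against 54.6 and 61.5 CPM with sh-NC in Jurkat cells at day 8 and 41.2 and 38.3 CPM with sh-SH2D1A against 59.2 and 54.4 CPM with sh-NC at day 10. Both sh-SH2D1A libraries were lower at both days, for -0.31 ± 0.08 (adjusted p = 0.0375) and -0.51 ± 0.10 (adjusted p = 0.018). In 6T-CEM cells it had 25.9 and 13.99 CPM with sh-SH2D1A against 36.0 and 30.4 CPM with sh-NC at day 5 and 38.7 and 35.9 CPM with sh-SH2D1A against 37.0 and 36.3 CPM with sh-NC at day 10. The 2 sh-SH2D1A libraries of day 5 differed from each other by about as much as the groups did, and the change of -0.72 ± 0.27 (adjusted p = 0.209) did not pass. At day 10 the groups overlapped. The Jurkat day 8 call was lost without either sh-SH2D1A library or without sh-NC replicate 2 (adjusted p up to 0.191), and the day 10 call without sh-NC replicate 1 (adjusted p = 0.0845).

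TYMS, thymidylate synthase, and RRM2, the regulated subunit of ribonucleotide reductase, were called in opposite directions at 6T-CEM day 10. TYMS had 563 and 547 CPM with sh-SH2D1A against 595 and 614 CPM with sh-NC there, for -0.12 ± 0.03 (adjusted p = 0.033). It was lower without overlap in the other comparisons as well, with -0.18 ± 0.05, -0.17 ± 0.07 and -0.40 ± 0.11 from Jurkat day 8 to 6T-CEM day 5, none past the threshold. ENOSF1 on the other strand covers 39.2% of the TYMS exons, and without a stated strand setting their reads cannot be told apart. RRM2 had 373 and 358 CPM with sh-SH2D1A against 330.1 and 321 CPM with sh-NC at 6T-CEM day 10, for 0.17 ± 0.03 (adjusted p = 0.0133), and RRM1, the large subunit, had changes between -0.14 and -0.01. The RRM2 call was lost without sh-NC replicate 2 or sh-SH2D1A replicate 1 (adjusted p = 0.084 and 0.0534), and the TYMS call without either sh-NC library or sh-SH2D1A replicate 2 (adjusted p up to 0.19).

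Of the 6 G1 to S regulators, 2 were called lower at Jurkat day 10, 2 lower at 6T-CEM day 5, 1 lower at Jurkat day 8 and 1 higher at 6T-CEM day 10. CCNE2, cyclin E2, had 54.5 and 52.8 CPM with sh-SH2D1A against 55.7 and 62.8 CPM with sh-NC in Jurkat cells at day 8 and 39.7 and 40.8 CPM with sh-SH2D1A against 54.5 and 60.3 CPM with sh-NC at day 10. The 6T-CEM cells had 52.7 and 41.6 CPM with sh-SH2D1A against 93.0 and 99.4 CPM with sh-NC at day 5 and 41.7 and 39.0 CPM with sh-SH2D1A against 43.6 and 44.2 CPM with sh-NC at day 10. The sh-SH2D1A libraries were lower in all 4, and the 2 day 5 sh-NC libraries held the highest CCNE2 levels of all 16. The changes were -0.51 ± 0.10 (adjusted p = 0.017) at Jurkat day 10 and -1.02 ± 0.15 (adjusted p = 0.0125) at 6T-CEM day 5. The level at 6T-CEM day 5 was 0.494 times that of the control. The changes at Jurkat day 8 and 6T-CEM day 10 were -0.15 ± 0.07 (adjusted p = 0.231) and -0.12 ± 0.06 (adjusted p = 0.269), short of the threshold. The Jurkat day 10 call was lost without sh-NC replicate 2 (adjusted p = 0.0782), and the 6T-CEM day 5 call held under all 10 alternatives, at -1.20 (adjusted p = 2.24e-07) and -0.85 (adjusted p = 3.26e-05) without the sh-SH2D1A replicate 1 or 2. INTS8 on the other strand covers 37.1% of the CCNE2 exons, so part of the CCNE2 reads may be of INTS8. CCNE1, cyclin E1, lay between 11.2 and 18.3 CPM and had changes between -0.25 and 0.12, none of them called.

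E2F8, a repressor of the programme, had 78.6 and 72.8 CPM with sh-SH2D1A against 88.8 and 90.4 CPM with sh-NC in Jurkat cells at day 8 and 83.7 and 89.4 CPM with sh-SH2D1A against 102 and 101 CPM with sh-NC at day 10. In 6T-CEM cells it had 59.5 and 65.5 CPM with sh-SH2D1A against 95.1 and 104 CPM with sh-NC at day 5 and 41.1 and 46.1 CPM with sh-SH2D1A against 47.1 and 50.6 CPM with sh-NC at day 10. It was lower without overlap in all 4 comparisons, and called in 2, at -0.25 ± 0.06 (adjusted p = 0.0337) in Jurkat day 8 and -0.66 ± 0.13 (adjusted p = 0.0343) in 6T-CEM day 5. E2F7, the related repressor, had 114 and 122 CPM with sh-SH2D1A against 98.9 and 106 CPM with sh-NC at 6T-CEM day 10 and was called higher, at 0.21 ± 0.05 (adjusted p = 0.0224). The Jurkat call of E2F8 was lost without either sh-SH2D1A library or sh-NC replicate 2 (adjusted p up to 0.239). Its 6T-CEM call was lost without sh-NC replicate 1 or 2 (adjusted p = 0.149 and 0.374) and held at -0.60 (adjusted p = 0.000953) and -0.73 (adjusted p = 0.00018) without the sh-SH2D1A replicate 1 or 2. The E2F7 call was lost without sh-NC replicate 1 or sh-SH2D1A replicate 2 (adjusted p = 0.136 and 0.0876).

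E2F1, an activator, had 118 and 110.1 CPM with sh-SH2D1A against 156 and 142 CPM with sh-NC in Jurkat cells at day 10, for -0.38 ± 0.09 (adjusted p = 0.0363). At 6T-CEM day 5 it had 67.3 and 47.3 CPM with sh-SH2D1A against 84.6 and 79.2 CPM with sh-NC, without overlap, for -0.50 ± 0.17 (adjusted p = 0.18), which did not pass. Its groups overlapped at Jurkat day 8 and 6T-CEM day 10. E2F2, another activator, had changes of -0.27 ± 0.08 at Jurkat day 10 and -0.46 ± 0.15 at 6T-CEM day 5, not past the threshold, and of 0.03 ± 0.06 and 0.09 ± 0.05 at the other days. The E2F1 call was lost without sh-NC replicate 1 or sh-SH2D1A replicate 2 (adjusted p = 0.157 and 0.121).

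**Figure D3:**
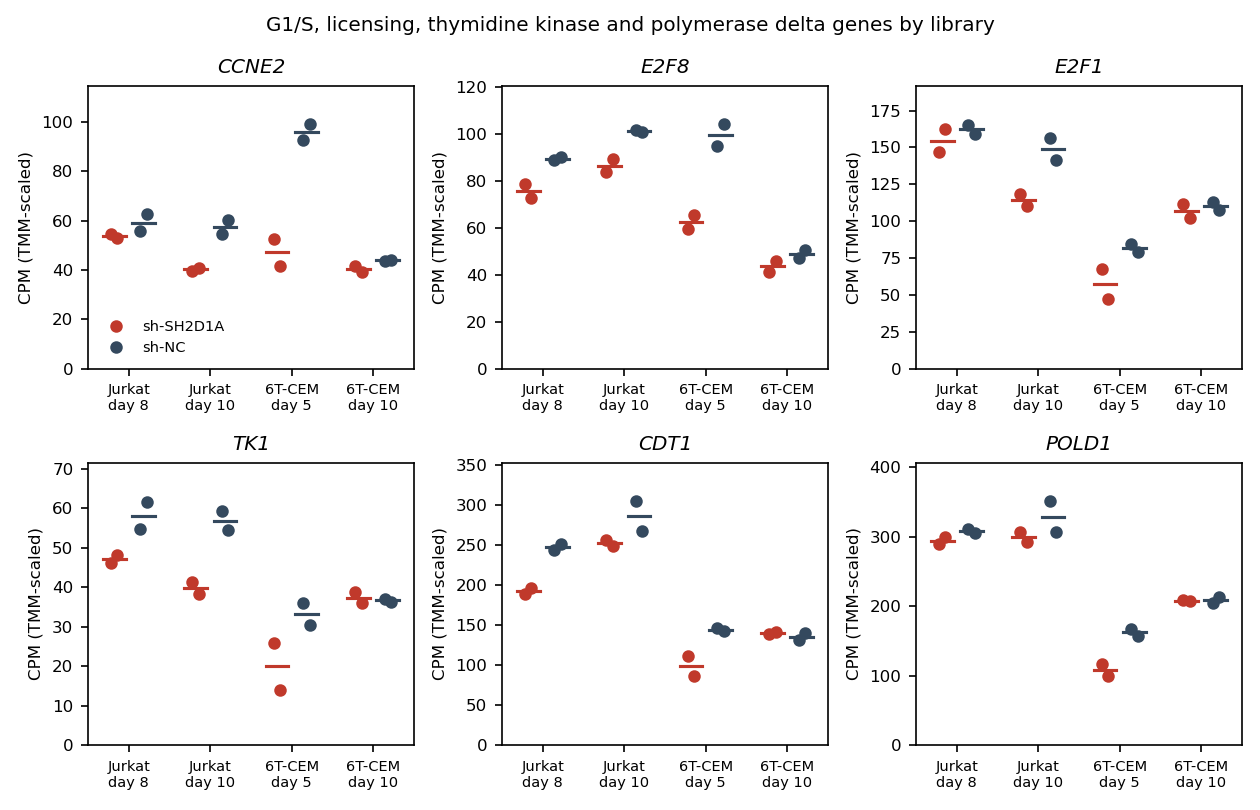
TMM-scaled CPM of CCNE2, E2F8, E2F1, TK1, CDT1 and POLD1 in each library (points; y axis) by line and day (x axis), with sh-SH2D1A in red left of sh-NC in grey and short lines at the means of 2 libraries. At 6T-CEM day 5 the red points of all 6 genes lie below the grey ones, and at 6T-CEM day 10 those of E2F1, TK1, CDT1 and POLD1 overlap them.

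Of the chromatin and checkpoint genes, CHAF1B, a subunit of the histone chaperone CAF-1, had 57.8 and 59.0 CPM with sh-SH2D1A against 67.9 and 71.2 CPM with sh-NC at 6T-CEM day 10, for -0.25 ± 0.05 (adjusted p = 0.014), and 41.7 and 46.4 CPM with sh-SH2D1A against 65.3 and 66.4 CPM with sh-NC at 6T-CEM day 5, for -0.57 ± 0.13 (adjusted p = 0.0708), just short of the threshold. UHRF1, which recruits DNA methylation to new DNA, had 508 and 516 CPM with sh-SH2D1A against 436 and 453 CPM with sh-NC in Jurkat cells at day 8, for 0.20 ± 0.05 (adjusted p = 0.0352). The groups of both calls did not overlap. The CHAF1B call was lost without sh-NC replicate 2 or sh-SH2D1A replicate 1 (adjusted p = 0.0883 and 0.0509), and that of UHRF1 without sh-SH2D1A replicate 1 or 2 of Jurkat day 8 (adjusted p = 0.211 and 0.277). CHAF1A, the large CAF-1 subunit, SLBP, which binds histone mRNA, and DTL, an adaptor of the ligase that degrades CDT1, had changes between -0.07 and 0.16. CLSPN, the checkpoint mediator claspin, had 112 and 117 CPM with sh-SH2D1A against 100.4 and 77.6 CPM with sh-NC at Jurkat day 8 and 74.1 and 86.3 CPM with sh-SH2D1A against 92.7 and 109 CPM with sh-NC at Jurkat day 10. The groups lay apart at both days and in opposite directions, with changes of 0.36 ± 0.11 (adjusted p = 0.0739) at day 8 and -0.33 ± 0.10 (adjusted p = 0.124) at day 10, neither past the threshold.

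A fit of all 16 libraries with 1 mean per group gave the mean of the 4 changes with a smaller error. It shares its spread over groups whose pairs differed by chi-squares of 4.84 to 25.0 per degree of freedom. In this fit 3108 genes were called at 6T-CEM day 5 and 916 at day 10, against 412 and 2752 in the separate fits. For the mean, 22 members fell and 2 rose by edgeR, or 46.8 and 4.26% of the 47. Of all genes 23% were called, 12.3% as lower and 10.7% as higher. The members had a median of -0.08 and all genes of 0.01. GINS3 rose by 0.57 ± 0.04 (adjusted p = 6.51e-07), and GINS1 fell, with a change of -0.45 ± 0.04 (adjusted p = 6.61e-07). CCNE2 had -0.45 ± 0.05 (adjusted p = 2.38e-05), E2F8 -0.33 ± 0.04 (adjusted p = 5.35e-05) and CHAF1B -0.28 ± 0.04 (adjusted p = 0.000249). The 12 members with the lowest adjusted p further held RFC5, TYMS, CDC45, MCM6, MCM10, CDT1 and POLD3, with mean changes between -0.26 and -0.18. All 12 kept their call and sign under the 21 alternatives, which included each of the 16 libraries left out. By role, 5 of 10 licensing genes, 4 of 6 helicase activation genes, 4 of 12 polymerase, clamp and loader genes, 2 of 3 maturation and repair genes, 2 of 4 nucleotide genes, 4 of 6 G1 to S regulators and 1 of 6 chromatin and checkpoint genes fell. The 2 that rose were GINS3 and RRM2, which had 0.12 ± 0.03 (adjusted p = 0.0174). Of the 23 members with an E2F word in the promoter window 10 fell and 1 rose, and of the 18 with a window and no such word 7 fell and 1 rose. The median of the mean changes was -0.08 in both sets.

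Other genes of the same pathway were counted beside the 47. Of 51 further replication and S phase genes, 50 were tested at Jurkat day 8, where 5 fell and none rose, or 10%, against 12.4% of all genes. Among the 5 were RPA1 (-0.26 ± 0.05), the large subunit of the single-strand binding protein, and DCK (-0.25 ± 0.05), the deoxycytidine kinase. At 6T-CEM day 10, 8 of 50 fell and 5 rose, or 26%, against 14% of all genes. They were led by ASF1B (0.27 ± 0.04), a histone chaperone, and HELLS (-0.33 ± 0.05), a chromatin remodeller. By edgeR none was called at Jurkat day 10 or 6T-CEM day 5, where 3.78 and 2.11% of all genes were. There 6 of 50 and 10 of 51 had an unadjusted p under 0.05, as did 18.3 and 16.9% of all genes. DESeq2 called 2 and 3 of the list. At 6T-CEM day 5, 40 of the 51 had a negative log2 change, with a median of -0.14. Without overlap, 22 lay below and 2 above, where 25.3% and 23.3% of all genes did. At Jurkat day 10, 29 of the 50 were negative, with a median of -0.03. There 15 lay below and 6 above, where 24.5% and 24.2% of all genes did. Over the mean of the 4 changes 11 of 51 fell and 2 rose, with a median of -0.05. These calls were 25.5% of the list, 21.6% lower and 3.92% higher. Of all genes 23% were called, 12.3% as lower and 10.7% as higher. RPA1 (-0.28 ± 0.03, adjusted p = 7.53e-06) and DUT (-0.22 ± 0.03, adjusted p = 0.000183), the dUTPase, had the lowest adjusted p of the list.

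Regulators of G1, a list that also holds further E2F factors and their partners, moved in both directions. At Jurkat day 8, 3 of 23 rose and 5 fell, or 34.8%, against 12.4% of all genes. They were led by CDK6 (0.63 ± 0.05, adjusted p = 0.000972), a kinase partner of D cyclins, and CCND3 (-0.52 ± 0.05, adjusted p = 0.00111), cyclin D3. At 6T-CEM day 10, 4 of 22 rose and 5 fell, or 40.9%, against 14% of all genes. Among them were TFDP2 (0.50 ± 0.04, adjusted p = 0.000115), an E2F partner, and RB1 (-0.32 ± 0.03, adjusted p = 0.000656), the retinoblastoma protein. Of 23 and 22 tested, 1 rose and 2 fell at Jurkat day 10, and 2 rose and none fell at 6T-CEM day 5. These calls were 13 and 9.09% of those tested, against 3.78 and 2.11% of all genes. Over the mean of the 4 changes 5 of 23 rose and 7 fell, or 52.2%, against 23% of all genes. The inhibitors CDKN1B (-0.44 ± 0.03, adjusted p = 5.66e-07) and CDKN2D (-0.58 ± 0.07, adjusted p = 2.2e-05) fell, as did CCND3 (-0.46 ± 0.06, adjusted p = 5.24e-05), and CDK6 rose (0.43 ± 0.05, adjusted p = 1.94e-05). Genes of G2 and mitosis had 2 of 30 higher and 1 lower at Jurkat day 8, 1 higher at Jurkat day 10, and 3 higher and 4 lower at 6T-CEM day 10. These calls were 10, 3.33 and 23.3% of the 30, against 12.4, 3.78 and 14% of all genes. None of the 30 was called at 6T-CEM day 5 by edgeR, where 2.11% of all genes were. There 6 of the 30 had an unadjusted p under 0.05, as did 16.9% of all genes, and DESeq2 called 2 of the 30. The median log2 change of the 30 there was -0.14, and that of the 47 members was -0.19. Of the 30, 25 had a negative change there. Without overlap, 14 lay below and 1 above, where 25.3% and 23.3% of all genes did. A lower level at 6T-CEM day 5 was thus not particular to the 47 members.

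The difference in response between the lines was tested at day 10, the day both lines share. By edgeR no member differed, where 0.812% of all genes did, 0.517% as higher and 0.295% as lower, 6 members had an unadjusted p under 0.05, as did 9.68% of all genes, and DESeq2 called none. The 3 members with the lowest p were RFC2, with a difference of -0.27 ± 0.10 (adjusted p = 0.368) for Jurkat minus 6T-CEM, CCNE2 with -0.39 ± 0.15 (adjusted p = 0.373) and UNG with 0.24 ± 0.10 (adjusted p = 0.398). All 6 G1 to S regulators had a negative difference, with a median of -0.35, and none passed. For GINS1 and GINS3 the differences were 0.01 ± 0.10 and 0.04 ± 0.13.

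The difference in response between days was tested within each line. In Jurkat cells no member differed between day 10 and day 8 by edgeR, where 0.00454% of all genes did, and 6 members had an unadjusted p under 0.05, as did 6.66% of all genes. CLSPN had the largest difference, -0.70 ± 0.17 (adjusted p = 0.432), and was the 1 member called by DESeq2. UHRF1 and CCNE2 followed, at -0.30 ± 0.12 (adjusted p = 0.674) and -0.37 ± 0.15 (adjusted p = 0.679). In 6T-CEM cells 2 members differed between day 10 and day 5, where 0.681% of all genes did, 0.404% as higher and 0.277% as lower. The day 10 change of CCNE2 minus its day 5 change was 0.90 ± 0.15 (adjusted p = 0.0127), and that of POLD1 was 0.57 ± 0.11 (adjusted p = 0.0366), so for both the deficit under sh-SH2D1A was larger at day 5. GINS3 had the next lowest p, with -0.58 ± 0.13 (adjusted p = 0.0561), which did not pass. Of the 47 members, 42 had a positive difference, and 22 had an unadjusted p under 0.05, 21 of them positive, where 13.1% of all genes had one. The CCNE2 call was lost without sh-NC replicate 1 or 2 or sh-SH2D1A replicate 1 of day 10 (adjusted p up to 0.0802). That of POLD1 was lost without any 1 of the 4 day 10 libraries or of the 2 day 5 sh-NC libraries (adjusted p up to 0.172). Without sh-SH2D1A replicate 1 or 2 of day 5, 13 and 6 members were called, with 1768 and 256 calls over all genes, against 150 with all libraries. Without sh-NC replicate 1 or 2 or sh-SH2D1A replicate 1 of day 10 none was, and without sh-SH2D1A replicate 2 of day 10 or sh-NC replicate 2 of day 5, 1 was.

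Levels of the control cells set the base of these changes. With sh-NC at day 10, Jurkat cells had more of 34 members than 6T-CEM cells and less of 1, UNG, by edgeR, where 36.6% of all genes were called, 18.4% as higher and 18.2% as lower. The median difference of the members was 0.35 on the log2 scale of Jurkat over 6T-CEM, and that of all genes -0.01. E2F8 had 102 and 101 CPM in Jurkat and 47.1 and 50.6 CPM in 6T-CEM, a log2 difference of 1.05 ± 0.08 (adjusted p = 2.68e-07). CDT1 had 304 and 267 CPM in Jurkat and 131 and 140.3 CPM in 6T-CEM, a difference of 1.08 ± 0.10 (adjusted p = 9.31e-07). RRM2 had 582 and 605 CPM in Jurkat and 330.1 and 321 CPM in 6T-CEM, a difference of 0.87 ± 0.06 (adjusted p = 1.43e-07). The libraries of the lines did not overlap for these 3 genes, nor for POLD3 (0.80 ± 0.07), MCM6 (0.68 ± 0.06), CDC45 (0.66 ± 0.07), POLD1 (0.66 ± 0.08) and ORC1 (0.65 ± 0.07). MCM10 (0.61 ± 0.07), TYMS (0.43 ± 0.06), RFC5 (0.46 ± 0.06) and MCM3 (0.36 ± 0.06) complete the 12 members with the lowest adjusted p, all higher in Jurkat. UNG had 96.8 and 92.6 CPM in Jurkat and 117 and 109.7 CPM in 6T-CEM, or -0.26 ± 0.07 (adjusted p = 0.00698). GINS2, GINS3 and GINS4 did not pass, with differences between -0.08 and 0.01, while GINS1 did at 0.34 ± 0.07. Of the other MCM subunits, MCM2, MCM5 and MCM7 passed, at 0.25 ± 0.06, 0.27 ± 0.09 and 0.19 ± 0.07, and MCM4 did not, at 0.07 ± 0.05. In the clamp loader RFC2 and RFC4 passed, at 0.43 ± 0.07 and 0.46 ± 0.08, and RFC3 did not, at 0.13 ± 0.10. POLA1, POLA2 and PRIM1 all passed, at 0.27 ± 0.09, 0.40 ± 0.06 and 0.34 ± 0.11. Among the regulators E2F1, E2F2, E2F7 and CCNE2 passed, with differences between 0.23 and 0.50, and CCNE1 did not, at 0.29 ± 0.14. Of the 30 genes of G2 and mitosis, 8 were higher and 8 lower in Jurkat, with a median of 0.00. Each line came from its own count table, so line and table cannot be told apart.

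**Figure D4:**
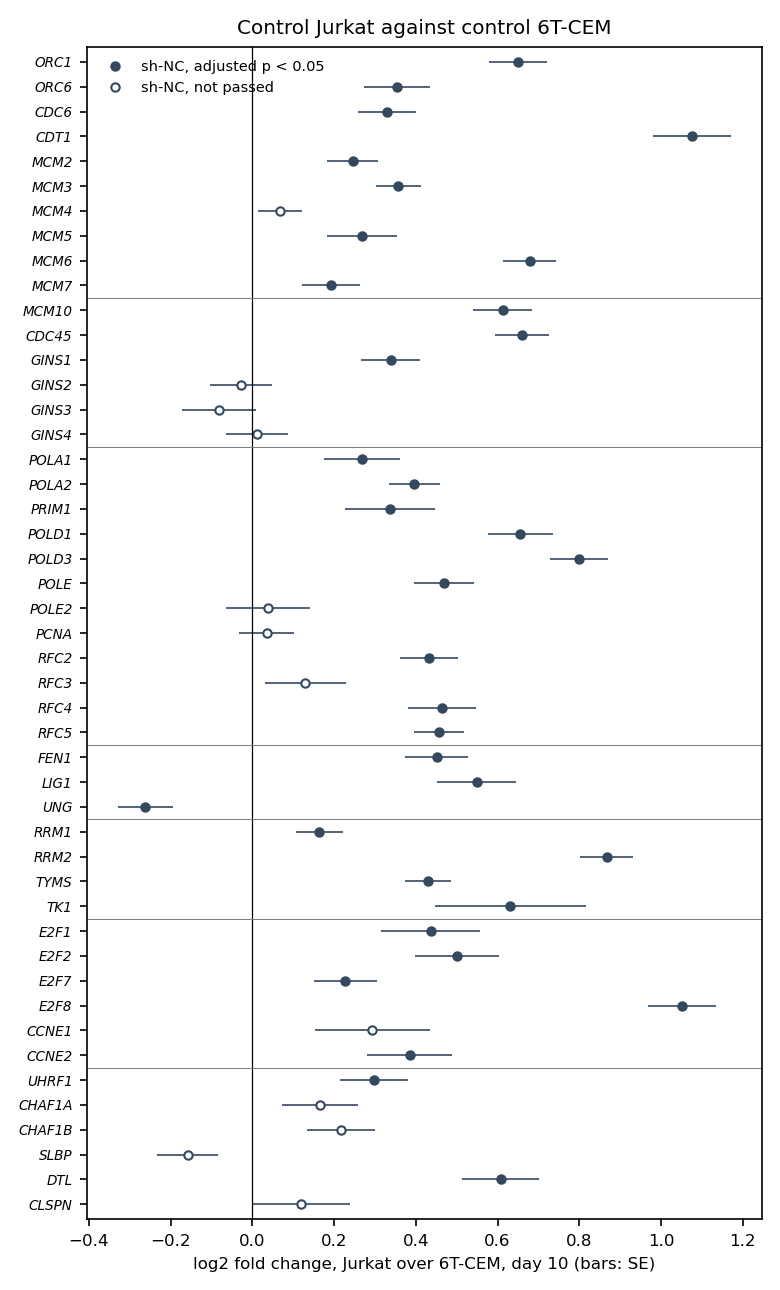
Log2 fold change of sh-NC Jurkat over sh-NC 6T-CEM at day 10 (x axis; bars are standard errors, 2 libraries per line) for the 47 members (rows, grouped by role), filled where the edgeR adjusted p was under 0.05. Of the filled points 34 lie right of 0 and only UNG lies left of it.

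Levels per kilobase of exon can be compared between genes only roughly, because the length takes in all annotated exons, whether or not they are used. On this scale TYMS had the highest median over the 16 libraries, at 277 CPM per kb. It was followed by PCNA at 213, MCM7 at 126, RRM2 at 101 and MCM3 at 90.1. CCNE1 had the lowest, at 5.31, then GINS3 at 8.07, POLA1 at 9.53 and POLE2 at 11.2 CPM per kb. Within the GINS complex the medians were 24.1 for GINS1, 15.0 for GINS2, 12.5 for GINS4 and 8.07 CPM per kb for GINS3. Within the MCM ring they were 126 for MCM7, 90.1 for MCM3, 67.6 for MCM2, 61.8 for MCM4, 56.3 for MCM6 and 28.7 CPM per kb for MCM5. The highest library of a gene had between 1.38 times the lowest, in GINS4, and 4.39 times the lowest, in TK1.

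The days differed within both arms. In 6T-CEM cells with sh-SH2D1A, 20 members were higher and 12 lower at day 10 than at day 5, where 43.1% of all genes were called, 21.4% as higher and 21.7% as lower. With sh-NC, 12 members were higher and 19 lower, where 39.9% of all genes were called, 19.3% as higher and 20.6% as lower. The fit shares its spread over all 16 libraries and does not set apart the wider spread of the day 5 sh-SH2D1A pair. With only the libraries of the sh-SH2D1A contrast in the fit, the members called went from 32 to 22. The calls over all genes went from 9494 to 7007. For sh-NC the same change of fit left 31 members called, as before. POLD1 had 208 and 207 CPM at day 10 and 117 and 99.6 CPM at day 5 with sh-SH2D1A, for 0.94 ± 0.08 (adjusted p = 1.39e-06), and 205 and 213 CPM at day 10 and 167 and 158 CPM at day 5 with sh-NC, for 0.36 ± 0.08 (adjusted p = 0.0022). The sh-SH2D1A libraries of day 5 were the lowest 6T-CEM values of POLD1. E2F1 had 0.90 ± 0.12 (adjusted p = 4.94e-05) with sh-SH2D1A and 0.43 ± 0.12 (adjusted p = 0.0122) with sh-NC. TK1 had 0.90 ± 0.19 (adjusted p = 0.00156) with sh-SH2D1A and 0.14 ± 0.19 (adjusted p = 0.585) with sh-NC. The sh-SH2D1A value rests on day 5 libraries that lay far apart for TK1, at 25.9 and 13.99 CPM. MCM7 rose in both arms, by 0.82 ± 0.07 (adjusted p = 1.57e-06) with sh-SH2D1A and 0.65 ± 0.07 (adjusted p = 9.57e-06) with sh-NC. DTL fell in both, with -0.80 ± 0.09 (adjusted p = 1.52e-05) with sh-SH2D1A and -0.87 ± 0.09 (adjusted p = 8.28e-06) with sh-NC. RRM2 also fell in both, with -0.60 ± 0.06 (adjusted p = 6.12e-06) with sh-SH2D1A and -0.61 ± 0.06 (adjusted p = 5.58e-06) with sh-NC. CCNE2 had -0.23 ± 0.10 (adjusted p = 0.0974) with sh-SH2D1A, which did not pass, and -1.13 ± 0.10 (adjusted p = 1.87e-06) with sh-NC. E2F8 and E2F7 fell in both arms, with changes of -0.52 ± 0.08 and -0.51 ± 0.08 with sh-SH2D1A and -1.03 ± 0.08 and -0.87 ± 0.08 with sh-NC. GINS3 rose in both, by 0.38 ± 0.09 (adjusted p = 0.00332) with sh-SH2D1A and 0.95 ± 0.09 (adjusted p = 2.79e-06) with sh-NC. The MCM subunits MCM2 and MCM5 rose with sh-SH2D1A, by 0.65 ± 0.06 and 0.61 ± 0.09, and with sh-NC, by 0.48 ± 0.06 and 0.47 ± 0.09. CHAF1A, UHRF1 and LIG1 rose as well, by 0.63 ± 0.09, 0.60 ± 0.08 and 0.62 ± 0.10 with sh-SH2D1A and 0.52 ± 0.09, 0.53 ± 0.08 and 0.36 ± 0.10 with sh-NC. POLD3, POLE2 and RRM1 fell, with -0.59 ± 0.07, -0.60 ± 0.10 and -0.32 ± 0.06 with sh-SH2D1A and -0.69 ± 0.07, -0.76 ± 0.10 and -0.45 ± 0.06 with sh-NC. RFC5 had -0.11 ± 0.06 (adjusted p = 0.185) with sh-SH2D1A, not past the threshold, and fell with sh-NC, with -0.43 ± 0.06 (adjusted p = 7.38e-05). Of the other MCM subunits, MCM3 rose in both arms, by 0.23 ± 0.06 with sh-SH2D1A and 0.33 ± 0.06 with sh-NC. MCM4 had 0.08 ± 0.05 with sh-SH2D1A and -0.06 ± 0.05 with sh-NC, neither past the threshold. MCM6 had -0.05 ± 0.06 (adjusted p = 0.565) with sh-SH2D1A, not past the threshold, and fell with sh-NC, with -0.26 ± 0.06 (adjusted p = 0.00517). The subunits of the ring thus did not share 1 direction between the days. Of the 30 genes of G2 and mitosis, 19 fell and 3 rose with sh-SH2D1A, and 21 fell and 2 rose with sh-NC.

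In Jurkat cells more members were lower than higher at the later day. With sh-SH2D1A, 17 members were lower and 1, CDT1, higher at day 10 than at day 8, where 6.55% of all genes were called, 3.34% as higher and 3.2% as lower. With sh-NC, 6 were lower, where 3.4% of all genes were called, 1.83% as higher and 1.57% as lower. UNG had 94.6 and 91.5 CPM at day 10 and 138 and 132 CPM at day 8 with sh-SH2D1A, for -0.53 ± 0.07 (adjusted p = 0.000414), and 96.8 and 92.6 CPM at day 10 and 131 and 138 CPM at day 8 with sh-NC, for -0.50 ± 0.07 (adjusted p = 0.00137). MCM4 had -0.40 ± 0.05 (adjusted p = 0.000651) with sh-SH2D1A and -0.27 ± 0.05 (adjusted p = 0.0179) with sh-NC. MCM6 had -0.40 ± 0.06 (adjusted p = 0.00237) with sh-SH2D1A and -0.30 ± 0.06 (adjusted p = 0.0217) with sh-NC. SLBP, GINS2 and PCNA were also lower in both arms, with -0.47 ± 0.07, -0.43 ± 0.08 and -0.39 ± 0.07 with sh-SH2D1A and -0.34 ± 0.07, -0.33 ± 0.08 and -0.28 ± 0.07 with sh-NC. Of the 6 MCM ring subunits 5 fell with sh-SH2D1A, MCM2, MCM3 and MCM5 with -0.36 ± 0.06, -0.31 ± 0.06 and -0.48 ± 0.09, and MCM7 had -0.21 ± 0.07 (adjusted p = 0.0971). Of the 30 genes of G2 and mitosis, 17 rose with sh-SH2D1A and 15 with sh-NC, none falling in either, with medians of 0.30 and 0.32. CDC6, CHAF1B and CLSPN also fell with sh-SH2D1A, with -0.46 ± 0.07, -0.36 ± 0.08 and -0.51 ± 0.12, and had -0.21 ± 0.07, -0.27 ± 0.08 and 0.18 ± 0.12 with sh-NC, none of these past the threshold. Leaving out any 1 of the 4 libraries of the arm lowered the count of members called to between 7 and 11 with sh-SH2D1A and to 1 or 2 with sh-NC, and UNG kept its call each time. Each day had its own count table, so day and table cannot be told apart, and a change in one arm that missed the threshold in the other is not shown to differ between the arms.

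**Figure D5:**
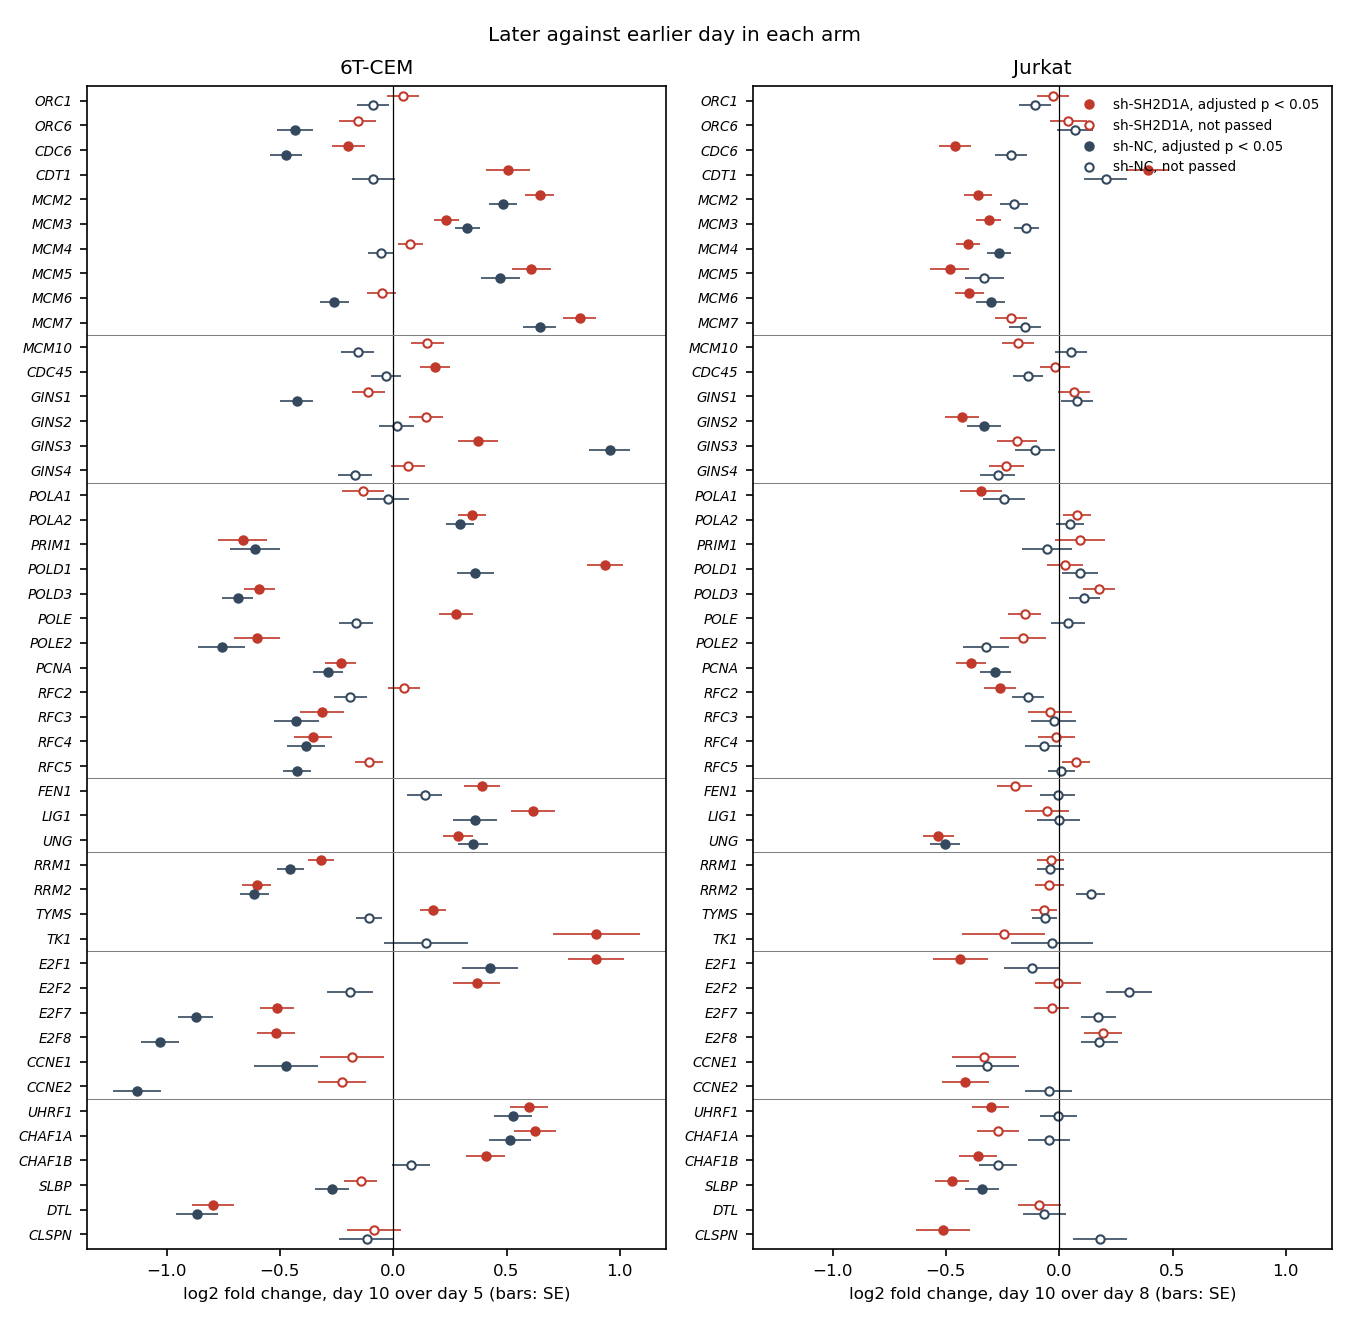
Log2 fold change of day 10 over the earlier day (x axes; bars are standard errors, 2 libraries per group) for the 47 members (rows, grouped by role) in 6T-CEM (left, day 10 over day 5) and Jurkat (right, day 10 over day 8), with sh-SH2D1A in red above sh-NC in grey and filled points where the edgeR adjusted p was under 0.05. In Jurkat the filled points lie left of 0 except that of CDT1 with sh-SH2D1A, and in 6T-CEM they lie on both sides.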

How the data were processed

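RNA of 16 libraries was read as 4 tables of gene counts deposited by the authors, 1 for each line and day, with 64252 gene identifiers each, of which 56105 carry a symbol. Total RNA was made into TruSeq libraries and sequenced on an Illumina NovaSeq, per the labels' protocols. HISAT2 2.2.0, StringTie and hg38 were used, per the submitters' processing notes. Not given in the sources used here are the annotation, the strand setting and the counting tool, so reads of overlapping genes may be shared. Identifiers without a symbol took 1.86 to 2.48% of the counts.

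Counts were tested with edgeR 4.0.16 (limma 3.58.1, R 4.3.3): TMM scaling, filterByExpr with a minimum count of 10, the two-sided quasi-likelihood F-test, and Benjamini-Hochberg adjustment over all tested genes, and a gene was called where its adjusted p was below 0.05. The standard error (after ±) is the absolute log2 change over the square root of F. Each comparison of the hairpins was fitted on its own 4 libraries, and every other contrast on all 16 libraries with 8 group means. CPM values are scaled by TMM over all 16 libraries. Exon lengths come from GENCODE 29, and promoters from RefSeq GRCh38.p14.

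The members and lists were chosen with earlier results of these data known. Further lists of replication, G1 and mitotic genes and of cell type markers come from textbook knowledge, and erythroid markers and 1 further replication gene are not reported here. All 47 members are accounted for; in each comparison called members are named up to the 12 with the lowest adjusted p, with fewer than 3 called the 3 lowest are given, and the MCM, GINS, RFC, primase and E2F with cyclin E groups are described whatever their values in the comparisons of the hairpins, and otherwise in part. Alternatives were DESeq2 1.42.0 (size factors and Wald test), 2 other filters, a replicate block, other sets of libraries in the fit and each library left out. The edgeR steps were also run on simulated data, with an outcome that is not given here.

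Equal replicate numbers were not treated as pairs and are not known to pair the libraries. Deviations of equally numbered libraries correlated at 0.011 and 0.097 at Jurkat days 8 and 10. At 6T-CEM days 5 and 10 they correlated at 0.108 and 0.007. With the replicate block the members called went from 9 to 6 and from 5 to 10 at Jurkat days 8 and 10. At 6T-CEM days 5 and 10 they went from 4 to 17 and from 10 to 10.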

Additional observations from a re-analysis of the deposited data

Results flagged for a closer look

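The change under sh-SH2D1A differed between the days in 6T-CEM cells for 2 members, by the edgeR test of the day 10 change minus the day 5 change over all 16 libraries. For CCNE2 the difference was 0.90 ± 0.15 (adjusted p = 0.0127). Its level was 41.7 and 39.0 CPM with sh-SH2D1A against 43.6 and 44.2 CPM with sh-NC at day 10 and 52.7 and 41.6 CPM with sh-SH2D1A against 93.0 and 99.4 CPM with sh-NC at day 5. For POLD1 the difference was 0.57 ± 0.11 (adjusted p = 0.0366). Its level was 208 and 207 CPM with sh-SH2D1A against 205 and 213 CPM with sh-NC at day 10 and 117 and 99.6 CPM with sh-SH2D1A against 167 and 158 CPM with sh-NC at day 5. In both genes the sh-NC libraries of day 5 lay above the sh-SH2D1A libraries of that day, while at day 10 the changes were -0.12 ± 0.06 for CCNE2 and -0.01 ± 0.03 for POLD1. With only the 8 libraries of 6T-CEM in the fit, neither passed, at adjusted p of 0.126 for CCNE2 and 0.173 for POLD1.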

How the results depend on the processing

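Of 1195 values of single members under another setting, 1053 kept their direction and their side of the threshold, 135 lost the call, 7 gained one and none changed sign; 92 of the losses came from leaving out 1 library, 21 from no filter on low counts, and 13 from fitting all 16 libraries together. The number of members called changed by more than 1.5 times in these cases. In Jurkat day 8 cells it was 9, against 3 with no filter and 5 with all 16 libraries in the fit. At Jurkat day 10 it was 5, against 0 with no filter, 10 with the replicate block and 3 with all 16 libraries. At 6T-CEM day 5 it was 4, against 12 by the DESeq2 Wald test, 17 with the replicate block and 21 with all 16 libraries. For 6T-CEM day 10 it was 10, against 1 with no filter and 3 with all 16 libraries. For the difference between days it was 0 in Jurkat, against 1 by DESeq2, and 2 in 6T-CEM, against 9 by DESeq2, 6 with the block and 0 with only the libraries of that contrast. For sh-NC Jurkat at day 10 against day 8 it was 6, against 10 by DESeq2 and 11 with the block. The cause was not tested. Equal replicate numbers are not known to pair the libraries, and the block is given only as a setting.

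With each library left out in turn, the lone library of a group being assumed to vary like the others, the members called numbered 1 to 13 at Jurkat day 8, 1 to 3 at Jurkat day 10, 1 to 20 at 6T-CEM day 5, 5 to 8 at 6T-CEM day 10 and 20 to 26 for the mean. They numbered 0 for both the line difference and the Jurkat day difference in response, 0 to 13 for the 6T-CEM day difference in response, 24 to 28 for the lines with sh-NC, 26 to 30 and 26 to 36 for the 6T-CEM days with sh-NC and sh-SH2D1A, and 1 to 2 and 7 to 11 for the Jurkat days with sh-NC and sh-SH2D1A.

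Among all genes, 2381 were called at Jurkat day 8, against 873 with no filter, 1323 with all 16 libraries and 511 to 2765 with a library left out. At Jurkat day 10 it was 721, against 0 with no filter, 1423 with the block and 349 to 961. At 6T-CEM day 5 it was 412, against 1118 by DESeq2, 2188 with the block, 3108 with all 16 libraries and 299 to 2687. For 6T-CEM day 10 it was 2752, against 1099 with no filter and 916 with all 16 libraries. For the line difference in response it was 179, against 443 by DESeq2 and 73 to 114 with a library left out. For the day differences in response it was 1 in Jurkat, against 62 by DESeq2, 3 with no filter, 4 with only those libraries and 0 to 7, and 150 in 6T-CEM, against 602, 297 with the block, 1 with only those libraries and 23 to 1768. For the Jurkat days it was 749 with sh-NC, against 1561 by DESeq2, 1237 with the block and 94 to 360, and 1442 with sh-SH2D1A, against 2214 by DESeq2, 2366 with only those libraries and 428 to 662. Every member had reads in every library, so depth kept none of them from being tested.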
